A study of Mus musculus with 2 samples.

Results

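The lysosomal cathepsins are the proteases that break down protein inside lysosomes, and the 9 genes Ctsa, Ctsb, Ctsc, Ctsd, Ctsf, Ctsh, Ctsl, Ctss and Ctsz were followed here by their gene symbols among the 32285 genes counted. They were chosen by name and not by their values. Most cathepsins are made as inactive precursors, carried to the lysosome by mannose 6-phosphate receptors and switched on there by acid and by other proteases. In microglia, the resident macrophages of the brain, they degrade engulfed material such as synapses, debris and lipoproteins, and cystatins hold stray cathepsin activity in check. Disc1 encodes a scaffold protein of the cytoskeleton, and the comparison addressed how its loss changed gene expression in microglia.

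Brain cells came from 23-week-old male littermates of 2 genotypes, Disc1 WT/WT (wild-type) and Disc1 LI/LI, which carries the locus impairment allele on both chromosomes in every cell of the body (WT/WT and LI/LI below). Whole brains of 6 mice per genotype were pooled, dissociated with actinomycin D to block transcription during handling (Act-Seq), and sorted for low CD45 and for CD11b, a surface pair that enriches for microglia. Each pool gave 1 droplet library, so the genotypes have no replicates and no test was made between them. Intervals are 95% exact intervals, Poisson for levels and Clopper-Pearson for shares and ratios, and cover counting error only.

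The WT/WT library held 33601957 UMIs in 7038 barcodes and the LI/LI library 47731571 in 7834. A UMI is a tag that marks 1 captured transcript. Barcodes entered if 200 genes or more were detected and mitochondrial transcripts took no more than 10% of UMIs, which kept 7032 and 7817, of which 12 sequences occurred in both libraries. Disc1 itself had 642 UMIs in WT/WT cells and 22 in LI/LI cells. Cells were classed by the share of their UMIs from genes outside the cathepsins. Microglia (P2ry12, Gpr34, Tmem119, Siglech, Fcrls and Olfml3 together at 0.5% or more, S100a8 and S100a9 under 1%) made up 87.9% of WT/WT and 24.9% of LI/LI cells. Neutrophils (S100a8 and S100a9 together at 3% or more) made up 1.65% and 46.3%, and other cells 10.5% and 28.7%. The libraries thus stood apart in their cell make-up despite the same sort, and whether this came from the genotype or from the pools, dissections or sorts cannot be told apart. All 7 further microglial markers were higher in microglia than in the other cells, and all 10 further neutrophil markers in neutrophils, in both libraries. Levels are given as UMIs of a gene per 1000000 UMIs of the class (CPM). Because each transcript is counted once at its 3′ end, CPM was not scaled by length.

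The 9 genes lie on 7 chromosomes of mm10. Ctsd, the main aspartic protease of the lysosome, lies at chr7:142375911-142388038 on the minus strand. The cysteine endopeptidases are Ctsb at chr14:63122462-63145923 (plus), which also trims dipeptides from the ends of proteins, Ctsl at chr13:64359337-64370890 (minus), Ctss at chr3:95526786-95556403 (plus), which cleaves the invariant chain of MHC class II and stays active at neutral pH, and Ctsf at chr19:4855130-4860918 (plus). The exopeptidases are Ctsc at chr7:88278085-88310888 (plus), a dipeptidyl peptidase that activates granule serine proteases, Ctsh at chr9:90054152-90076089 (plus), an aminopeptidase, and Ctsz at chr2:174427493-174439039 (minus), a carboxypeptidase. Ctsa at chr2:164832873-164841032 (plus) is a serine carboxypeptidase that also protects lysosomal beta-galactosidase and neuraminidase from degradation. Ctsd, Ctsl and Ctss share bases with another annotated gene on the same strand (Gm49369, Gm49230 and Hmgb1-ps5), so reads of these pairs are uncertain. Ctsa, Ctsb, Ctsc, Ctsl and Ctsz overlap a gene on the other strand, and Ctsf and Ctsh overlap none.

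Promoter windows, 250 bases before to 50 after a RefSeq transcription start (GRCm38.p6), were found for 7 of the 9 genes. Ctsa, Ctsd, Ctsf and Ctsl held CACGTG, the core of the sites bound by the lysosomal regulators TFEB, TFE3 and MITF, in 4 of 8 windows, against 7.15% of all 32851 windows. The longer TCACGTGA, which contains CACGTG, was in the Ctsa and Ctsd windows and in 0.974% of all windows. Ctss and Ctsc held GAGGAAGT, a form of the site bound by the myeloid ETS factor PU.1, read on the other strand as ACTTCCTC, and 3.20% of all windows held it. Both strands were searched, and Ctsz held none of these motifs. The pieces below are shown so that the windows holding a motif can be compared with the profiles across cell types described further on. Capitals mark the motif, and each 60-base piece is written 5′ to 3′ on the strand of its gene.

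Ctsd, chr7:142387893-142387952, minus: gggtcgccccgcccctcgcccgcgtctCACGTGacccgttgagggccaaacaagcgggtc
Ctsl, chr13:64370711-64370770, minus: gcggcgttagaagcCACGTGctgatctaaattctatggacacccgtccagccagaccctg
Ctsf, chr19:4855059-4855118, plus: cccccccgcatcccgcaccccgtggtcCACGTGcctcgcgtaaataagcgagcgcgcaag
Ctsa, chr2:164833728-164833787, plus: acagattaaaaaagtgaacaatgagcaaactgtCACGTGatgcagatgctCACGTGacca
Ctss, chr3:95526741-95526800, plus: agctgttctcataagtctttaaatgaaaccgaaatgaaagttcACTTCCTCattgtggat
Ctsc, chr7:88277908-88277967, plus: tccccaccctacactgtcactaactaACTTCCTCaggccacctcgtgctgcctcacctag

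Relative to the RefSeq start, the motif began 98 bases upstream in Ctsd, 236 in Ctsl, 79 in Ctsf, 151 in Ctsc and 2 in Ctss. Ctsa held CACGTG 12 bases upstream and again at base 6 of the transcript, and Ctsd had a further copy 245 bases upstream that is not shown. The pieces of Ctsd, Ctsl and Ctsa lie inside the gene spans given above. For these genes the RefSeq start used lies downstream of the start of the span. A match in these letters is a description and not a binding site.

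Cathepsin mRNA was abundant in microglia and dominated by Ctss and Ctsd. The 9 genes together took 2.05% of microglial UMIs in WT/WT, or 97.3 UMIs per cell, and 2.23% in LI/LI, or 93.6 UMIs per cell. Ctss stood at 8034 CPM (8002 to 8067) in WT/WT and 8012 CPM (7951 to 8074) in LI/LI microglia. Ctsd stood at 5388 CPM (5361 to 5414) and 6842 CPM (6786 to 6899). These genes together supplied 65.6% and 66.5% of the cathepsin UMIs, so that a protease of antigen presentation and the aspartic protease outweighed the other 7.

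The remaining endopeptidases were several times lower. Ctsb had 1899.9 CPM in WT/WT and 1736 CPM in LI/LI microglia, and Ctsl had 1463 and 1588 CPM. Ctsf was the lowest of the 9 genes in both libraries, with 233 and 246 CPM, and the highest level, that of Ctss, exceeded it 34.5-fold and 32.6-fold. Among the exopeptidases Ctsz led with 1400.0 and 1742 CPM. Ctsh had 871 and 977 CPM, Ctsc 643 and 573 CPM, and Ctsa 536 and 617 CPM. In WT/WT microglia the order was Ctss, Ctsd, Ctsb, Ctsl, Ctsz, Ctsh, Ctsc, Ctsa, Ctsf, and no neighbours had overlapping intervals. In LI/LI microglia Ctsz moved ahead of Ctsb and Ctsl, with overlapping intervals for Ctsz and Ctsb, and Ctsa moved ahead of Ctsc.

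Nearly every microglial cell carried the abundant members. A Ctss UMI was seen in 99.9% of WT/WT and 99.8% of LI/LI microglia, and a Ctsd UMI in 99.8% of both. Ctsf was seen in 62.6% and 61.2%, at median depths of 4271 and 3787.5 UMIs per cell, while it was seen in 2.38% of the 42 WT/WT T cell-like cells (median 4607 UMIs) and 10.2% of the 59 LI/LI ones (median 4211 UMIs). With each microglial cell thinned to 1000 UMIs, which left out 104 and 17 shallower cells, Ctsf was seen in 20.8% and 21.0% of cells, so the low share followed the low level. The thinned means were 8.01 and 7.98 UMIs per cell for Ctss and 5.40 and 6.82 for Ctsd.

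**Figure D1:**
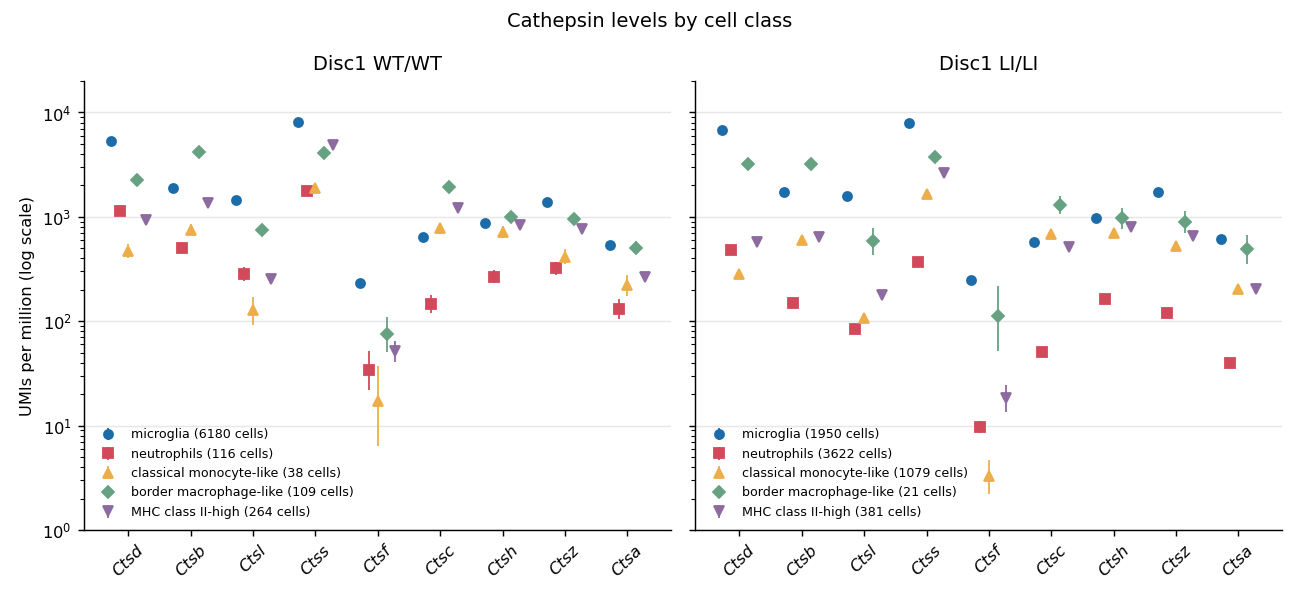
Level of each cathepsin in 5 cell classes of the WT/WT library (left) and the LI/LI library (right), in CPM on a log scale; points are the level over all cells of a class in 1 library and bars the 95% Poisson interval. Microglia (blue circles) have the highest Ctsd, Ctsl, Ctss, Ctsf, Ctsz and Ctsa, border macrophage-like cells (green diamonds) the highest Ctsb and Ctsc, and Ctsf falls furthest in classical monocyte-like cells of LI/LI, to 3.31.

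Between the genotypes, cathepsin levels in microglia differed little. None of the 9 genes was past 1.28-fold (a natural log ratio of 0.25) in either direction. Among the 5993 genes whose mean over both libraries was at least 20 CPM, 3.87% were higher in LI/LI past that fold. Another 32.4% were lower. Ctsd was the closest, with 1.27-fold more in LI/LI, a log2 ratio of 0.34 (0.33 to 0.36). Ctsz followed at 0.31 (0.29 to 0.34), Ctsa at 0.20 (0.16 to 0.25), and Ctsh at 0.17 (0.13 to 0.20). Ctsl had a ratio of 0.12 (0.09 to 0.15) and Ctsf of 0.08 (0.01 to 0.15), while Ctss differed by less than counting error (-0.00, -0.02 to 0.01). Ctsb, at -0.13 (-0.16 to -0.10), and Ctsc, at -0.16 (-0.21 to -0.12), were lower in LI/LI. The median over the 9 genes was 0.12, beside -0.16 over all genes tested, of which 36.0% were above 0. The summed cathepsin level had a log2 ratio of 0.13.

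These small ratios depended on the scaling. TMM factors, which assume that most genes do not differ, raised every microglial ratio by 0.13. Ctsd then stood at 0.48 and Ctsz at 0.45, both past 1.28-fold, Ctsb at 0.00 and Ctss at 0.13, so that Ctsb and Ctss lay above 0, and Ctsc at -0.03 alone stayed below 0. Over all genes TMM gave 12.5% higher and 20.7% lower. Ctsd alone also passed the fold when microglia were cut at 1% of markers, when hemoglobin, mitochondrial and ribosomal genes were left out of the totals, when cells were weighted equally, and when the 5% of cells with most UMIs were left out.

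Gene length moved with the ratios in microglia. Among genes tested the median log2 ratio was 0.16 in the shortest of 4 equal bins of gene span, -0.06 in the next, -0.28 in the third and -0.46 in the longest. Ctsa and Ctsf belonged to the shortest bin, Ctsb, Ctsd, Ctsh, Ctsl and Ctsz to the next, and Ctsc and Ctss to the third. Ctsa, Ctsc, Ctsd, Ctsh, Ctsl, Ctss and Ctsz thus lay above the median of their length bin, and Ctsb and Ctsf below it. Neutrophil transcripts also differed between the microglial classes: S100a8 and S100a9 summed to 27.9 CPM in WT/WT and 687 CPM in LI/LI microglia, and Elane had 0.204 CPM (6 UMIs) and 50.2 CPM (410 UMIs). All 10 further neutrophil markers were detected there, with a summed level of 157 and 739 CPM, and the 6 border macrophage markers summed to 113 and 41.9 CPM. The part of gene length or of these transcripts in the cathepsin ratios was not tested.

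**Figure D2:**
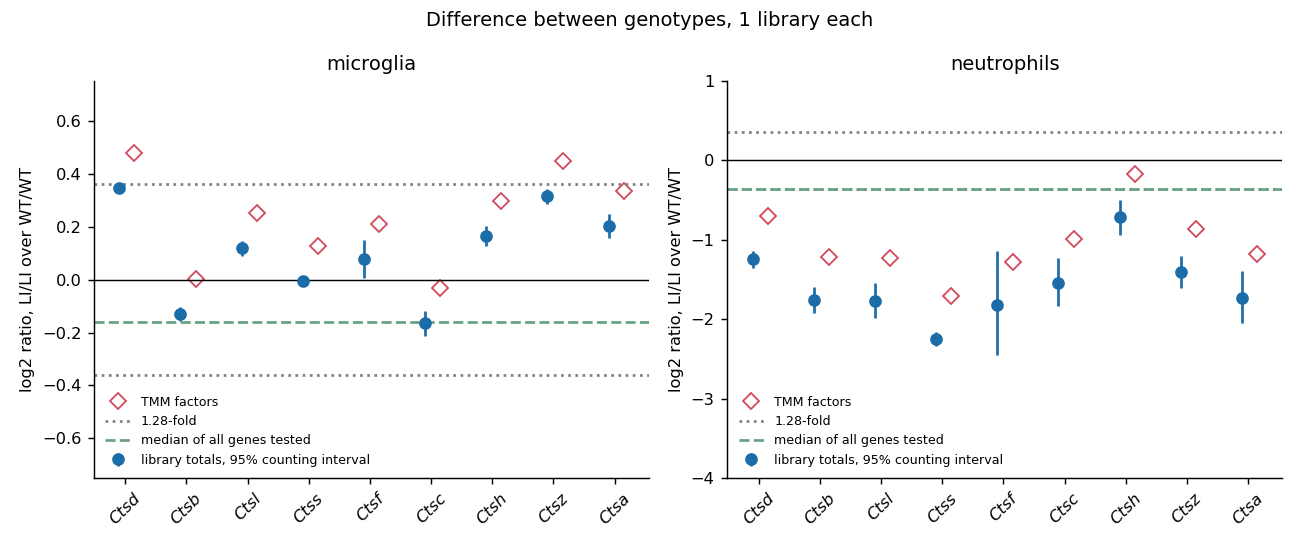
Log2 ratio of each cathepsin, LI/LI over WT/WT, in microglia (left) and neutrophils (right), from library totals with 95% counting intervals (blue) and with TMM factors (red diamonds); dotted lines mark 1.28-fold and the dashed line the median of all genes tested. In microglia all 9 blue points lie within 1.28-fold, from -0.16 for Ctsc to 0.34 for Ctsd, whereas in neutrophils all 9 lie below it, from -2.25 for Ctss to -0.72 for Ctsh.

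The genes that act with the cathepsins were compared between the genotypes in the same way. Of the inhibitors, Cst3 (cystatin C) was the most abundant in microglia. It had 67419.5 CPM in WT/WT and 85192 CPM in LI/LI microglia, a log2 ratio of 0.34. Cstb, the cystatin of the cytosol, had 97.0 and 110 CPM (0.17). Of the 11 genes tested for processing and sorting, none was higher past 1.28-fold and 3 were lower, the receptor gene M6pr (202 and 155 CPM) and the regulators Tfe3 (89.9 and 66.8 CPM) and Mitf (54.6 and 35.1 CPM). Lgmn, the asparagine endopeptidase that cuts cathepsin precursors into chains, had 3173 and 3407 CPM (0.10), and Psap, which supplies the saposins, 1507 and 1593 CPM (0.08).

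Of 37 other lysosomal genes tested, 1 was higher (Rnaset2a, 87.2 and 132 CPM) and 9 were lower past the fold, among them Lamp1, a membrane protein of the lysosome, with 1659 and 1211 CPM. The median of this list was -0.04. Laptm5, a membrane protein of lysosomes in immune cells, had 2366 and 1992 CPM (-0.25), and Lamp1 stood at -0.45. Of 17 genes of the V-ATPase, the pump that acidifies lysosomes, none was higher and 4 were lower, with a median of 0.02. Its most abundant members Atp6v0b (0.17) and Atp6v0c (0.28) lay above 0. Of the 6 genes of MHC class II presentation, whose invariant chain is cut by cathepsin S, Cd74 (260 and 416 CPM, 0.68) and H2-Aa (93.6 and 122 CPM, 0.38) were higher past the fold and none was lower, while H2-DMa had 235 and 274 CPM (0.22) and Ctss itself showed no such difference. The background for these microglial counts is the same 3.87% and 32.4% of genes. In neutrophils, Cd74, H2-Aa, H2-Ab1 and H2-Eb1 were also higher in LI/LI past the fold, and H2-DMa and H2-DMb1 were lower. The median log2 ratio of these 6 genes there was 2.74, where 11.1% of genes were higher and 50.2% lower. Higher Cd74 and H2-Aa in LI/LI were thus not confined to microglia, and their source was not tested.

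Neutrophils held far less cathepsin mRNA than microglia. All 9 genes were higher in microglia past 2-fold in both libraries, where 47.8% of 5694 genes in WT/WT and 52% of 5108 genes in LI/LI were, and 11.3% and 12.2% were lower. The log2 ratios ran from 1.70 (Ctsh) to 2.76 (Ctsf) in WT/WT, with a median of 2.13 beside 0.95 for all genes. They ran from 2.58 (Ctsh) to 4.66 (Ctsf) in LI/LI, with a median of 3.85 beside 1.07. TMM factors lowered every ratio by 0.89 in WT/WT and 1.32 in LI/LI. All 9 genes then stayed higher in microglia, 8 of them past 2-fold in WT/WT (Ctsh at 0.81 was not) and all 9 in LI/LI, beside 15.7% and 15.5% of all genes higher and 22.1% and 33.0% lower.

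Within LI/LI neutrophils Ctsd was the leading cathepsin, with 477 CPM (468 to 486), ahead of Ctss with 370 CPM and Ctsh with 163 CPM. Ctsb had 149 CPM, Ctsz 121 CPM, Ctsl 83.5 CPM and Ctsc 50.6 CPM. Ctsa had 39.9 CPM and Ctsf 9.73 CPM, and no neighbours in this order had overlapping intervals. In the 116 WT/WT neutrophils every member was higher, and Ctss led instead, with 1757 CPM (1658 to 1860) before Ctsd with 1130.1 CPM (1051 to 1214). There Ctsb had 504 CPM, Ctsz 321 CPM, Ctsl 285 CPM, Ctsh 268 CPM, Ctsc 147 CPM, Ctsa 132 CPM and Ctsf 34.5 CPM. Without the 11 of these cells that also passed the microglial marker cut, Ctss had 1080.2 CPM, Ctsz 189 CPM, Ctsl 167 CPM, Ctsc 89.1 CPM and Ctsa 80.0 CPM, each lower by more than 1.5 times, with Ctsd at 809 CPM and Ctsh at 213 CPM.

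Microglial transcripts were present in the neutrophils as well, and differed in the same direction. The 7 microglial check markers, which include the complement genes C1qa, C1qb and C1qc, stood at 19.3% to 21.6% of their microglial level in WT/WT neutrophils and at 3.47% to 4.03% in LI/LI neutrophils. The cathepsins stood at 14.8% (Ctsf) to 30.8% (Ctsh) of their microglial level in WT/WT neutrophils, where 6 of 9 were above all 7 markers. Of these only Ctsb (23.7 to 29.5) and Ctsh (26.4 to 35.7) had intervals clear of that of C1qc, the highest marker (20.3 to 22.9). The interval of Ctsf (9.37 to 22.2, 23 UMIs) overlapped those of the markers. In LI/LI neutrophils, Ctsh stood at 16.7% of its microglial level (16.1 to 17.4), Ctsc at 8.83%, Ctsb at 8.58% and Ctsd at 6.97%. Ctsz (6.95%), Ctsa (6.46%), Ctsl (5.25%) and Ctss (4.62%) were also above all 7 markers, while Ctsf (3.96%) lay within their range. The median gene tested, with log2 ratios of microglia over neutrophils of 0.95 in WT/WT and 1.07 in LI/LI, lay above the markers as well. Other cells of LI/LI held more UMIs than its microglia for Ctsc (9364 against 4684) and Ctsh (10651 against 7981), and fewer for the rest. A level above the markers thus does not separate expression from background. Some neutrophils also passed the microglial marker cut, 11 of 116 in WT/WT and 57 of 3622 in LI/LI. Without them the markers stood at 9.41% to 12.8% and 2.22% to 2.76%, and 7 and 8 of the 9 cathepsins lay above all markers.

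**Figure D3:**
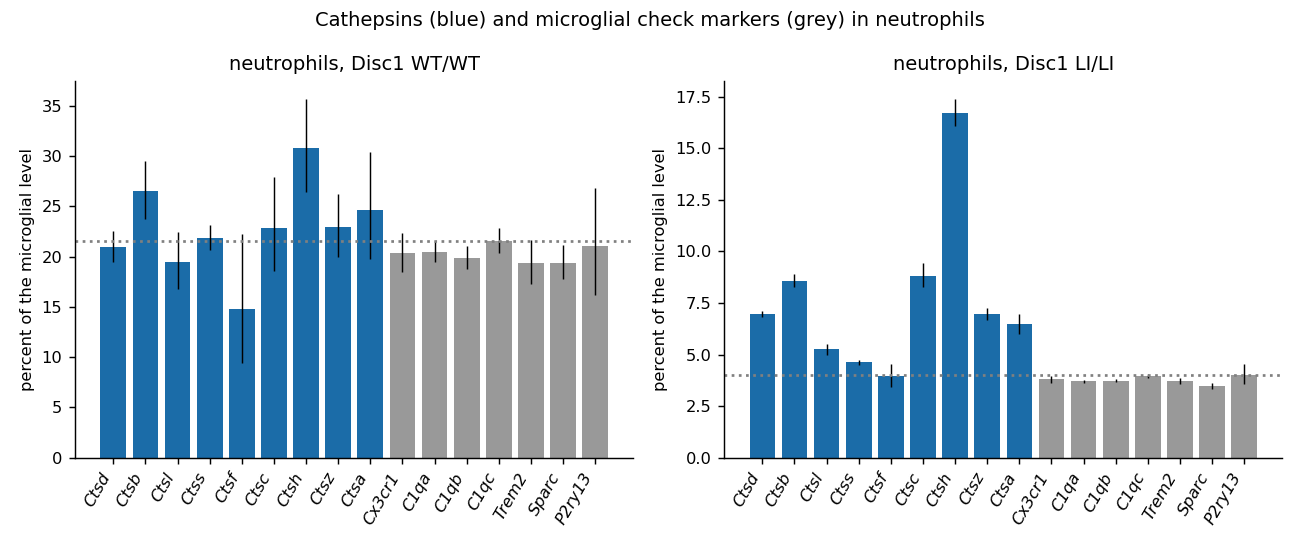
Level in neutrophils as percent of the level in microglia of the same library, for the 9 cathepsins (blue) and 7 microglial check markers (grey), in WT/WT (left) and LI/LI (right); the axes differ, error bars are 95% counting intervals and the dotted line marks the highest check marker. In LI/LI, Ctsh stands at 16.7% and 8 of 9 cathepsins lie above the markers (3.47% to 4.03%). In WT/WT 6 of 9 lie above the markers (19.3% to 21.6%) and Ctsf lies below them. Only Ctsb and Ctsh have intervals wholly above the dotted line there, and the interval of Ctsf reaches the markers.

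The share of cells with a UMI gave another view. In LI/LI neutrophils, with a median of 4194 UMIs, Ctsd was seen in 77.2% of cells and Ctsh in 42.5%, beside 30.9% (29.4 to 32.4) for C1qa, which neutrophils should lack. Ctsb (31.0%), Ctss (27.9%), Ctsz (24.8%), Ctsl (17.9%), Ctsa (13.6%), Ctsc (11.6%) and Ctsf (4.03%) lay below this share or within its interval. C1qa is more abundant in microglia than each of the 9 cathepsins (14032 CPM in LI/LI), so a share below that of C1qa does not separate background from expression. In WT/WT neutrophils (median 4844.5 UMIs) Ctsd was seen in 80.2% of cells, beside 49.1% (39.7 to 58.6) for C1qa, while Ctss (50.9%), Ctsh (50%) and Ctsb (49.1%) lay within that interval.

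Between the genotypes, all 9 cathepsins were lower in LI/LI neutrophils past 1.28-fold, where 11.1% of 4104 genes were higher and 50.2% lower. The log2 ratio was -2.25 for Ctss, -1.82 for Ctsf, -1.77 for Ctsl and -1.76 for Ctsb. It was -1.73 for Ctsa, -1.54 for Ctsc, -1.41 for Ctsz, -1.25 for Ctsd and -0.72 for Ctsh. The median was -1.73, beside -0.36 for all genes. With cells thinned to 1000 UMIs, Ctsf stood at -0.39. TMM factors raised the ratios by 0.54 and left 8 genes past the fold, with Ctsh at -0.17, beside 39.4% of all genes higher and 18.7% lower. The 7 microglial markers moved with these ratios, as their percentages show, and their part in the cathepsin difference was not tested.

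LI/LI neutrophils were numerous enough to be split by maturity, into 1192 cells with more UMIs of immature granule genes such as Ngp and Camp and 2430 with more of mature genes such as Retnlg and Csf3r. The median depth was 8375 UMIs in the immature and 3068.5 in the mature cells. Ctsd had 286 CPM in the immature and 758 CPM in the mature cells, a log2 ratio of 1.40 (1.35 to 1.46). Per cell, Ctsd had 3.09 UMIs in the immature and 2.72 in the mature cells. Its higher CPM in mature cells is thus a larger share of fewer UMIs, and not more Ctsd UMIs per cell. Ctsl had 59.5 and 119 CPM (1.00), and Ctss 289 and 490 CPM (0.76). Ctsh ran the other way, with 172 and 149 CPM (-0.21, -0.31 to -0.11), and Ctsb was level, with 146 and 153 CPM (0.06, -0.04 to 0.17). The microglial check markers were also higher in the mature cells, by 0.81 to 0.96. Ctsd exceeded all of them, with an interval clear of theirs. Ctsl exceeded them by a small margin, but its interval (0.86 to 1.14) overlapped theirs. The other 7 cathepsins lay below all of them. Intervals of Ctss (0.69 to 0.82), Ctsa (0.49 to 0.88) and Ctsf (0.13 to 0.94) overlapped that of Sparc, the lowest marker (0.71 to 0.90). In WT/WT neutrophils, with 40 and 76 cells, the ratios ran from 0.13 to 0.70 for the cathepsins and 0.09 to 0.82 for the markers. Ctsh was there higher in the mature cells (0.66, 0.22 to 1.11), opposite to LI/LI. Ctsd (0.70, 0.49 to 0.91) did not exceed the highest marker there.

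Classical monocyte-like cells, named from Ly6c2, Ccr2, F13a1 and Vcan, had a different set of cathepsins. In the 1079 such cells of LI/LI, 7 of 9 genes were lower than in microglia past 2-fold and none was higher, where 24.4% of 5562 genes were lower and 14.5% higher. Ctsf was at 3.31 CPM (30 UMIs), a log2 ratio of -6.22 to microglia, Ctsd at 283 CPM (-4.60) and Ctsl at 107 CPM (-3.89). Ctss, at 1673 CPM (-2.26), Ctsz, at 522 CPM (-1.74), Ctsa, at 205 CPM (-1.59), and Ctsb, at 602 CPM (-1.53), were lower by less. The exopeptidases Ctsh, with 694 CPM (-0.49), and Ctsc, with 682 CPM (0.25), were near their microglial levels. The median was -1.74 beside -0.25 for all genes. TMM factors raised the ratios by 0.44, still with 7 genes lower, beside 23.9% of all genes higher and 14.9% lower. The microglial check markers stood at 1.25% to 3.92% of their microglial level in these cells. The 38 classical monocyte-like cells of WT/WT had the same leading members, with 1888 CPM of Ctss, 779 of Ctsc, 753 of Ctsb and 716 of Ctsh, and again low Ctsl (127 CPM) and Ctsf (17.3 CPM).

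Border macrophage-like cells, named from genes such as Mrc1, Pf4 and Lyve1, carried the highest Ctsb and Ctsc of the 5 classes plotted by level. In the 109 such cells of WT/WT, Ctsc had 1926 CPM and Ctsb 4208 CPM, log2 ratios to microglia of 1.58 and 1.15. Ctsf (76.2 CPM, -1.61) and Ctsd (2263 CPM, -1.25) were lower past 2-fold. Of 6125 genes, 7.48% were higher and 12.9% lower past that fold. Ctss (4083 CPM, -0.98) and Ctsl (751 CPM, -0.96) fell just short of it, and Ctsz (944 CPM, -0.57), Ctsh (996 CPM, 0.19) and Ctsa (509 CPM, -0.07) were closer to microglia. TMM factors moved these ratios by 0.07. Other microglial cuts changed 2 calls: with markers at 1% or more Ctsd stood at -0.96, within 2-fold, and with markers at 0.25% or more Ctss stood at -1.56, past it. Ctss was past 2-fold under 5 settings in all, among them equal weight per cell (-1.15) and thinning (-1.18). Of the 7 microglial check markers, C1qa, C1qb and C1qc stood at 82.7% to 94.3% of their microglial level there, and Sparc (11.1%), Cx3cr1 (16.6%), P2ry13 (29.9%) and Trem2 (34.4%) far lower. The 21 border macrophage-like cells of LI/LI had 3192 CPM of Ctsb and 1299.7 CPM of Ctsc, with 3230.2 CPM of Ctsd.

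MHC class II-high cells, classed by MHC class II and dendritic cell genes, were led by Ctss, with 4845 CPM in 264 WT/WT cells and 2639 CPM in 381 LI/LI cells. Ctsb had 1371 and 641 CPM, Ctsc 1221 and 514 CPM, and Ctsh 837 and 804 CPM. Microglial check markers stood at 8.98% to 57.5% of the microglial level in WT/WT and 5.84% to 15.3% in LI/LI cells of this class, so the class held different amounts of microglial transcripts in the libraries, whose part was not tested. The 115 progenitor-like cells of LI/LI, with granule protease genes such as Mpo and Elane, were the only class shown in which Ctsz led, with 354 CPM, before Ctsc (259), Ctsb (253), Ctsh (230), Ctsd (206) and Ctss (200.5).

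**Figure D4:**
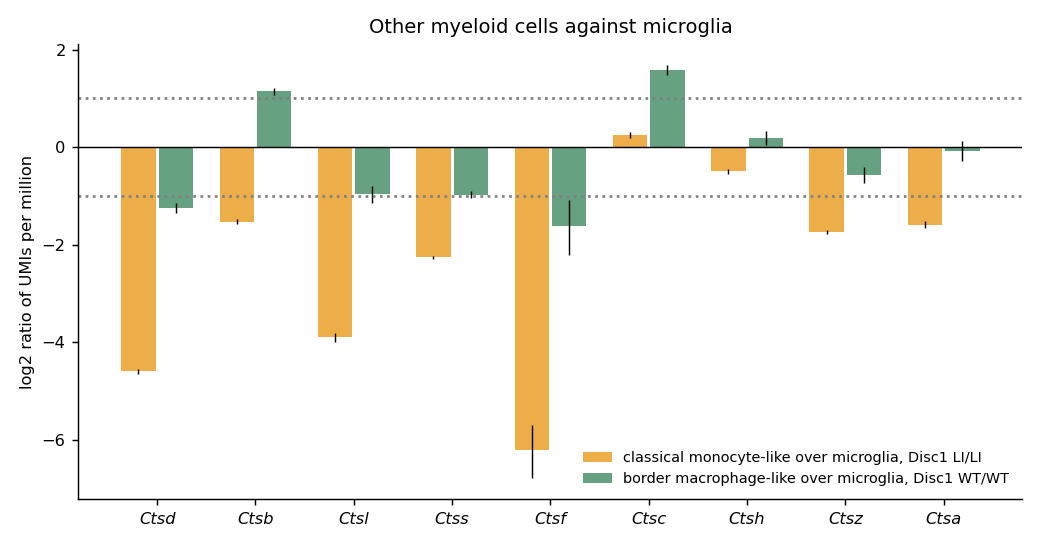
Log2 ratio of each cathepsin to microglia of the same library, in classical monocyte-like cells of LI/LI (orange) and border macrophage-like cells of WT/WT (green); error bars are 95% counting intervals and dotted lines mark 2-fold. Orange bars reach -6.22 for Ctsf and -4.60 for Ctsd with Ctsc at 0.25, and green bars are past 2-fold upward for Ctsc and Ctsb.

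**Figure D5:**
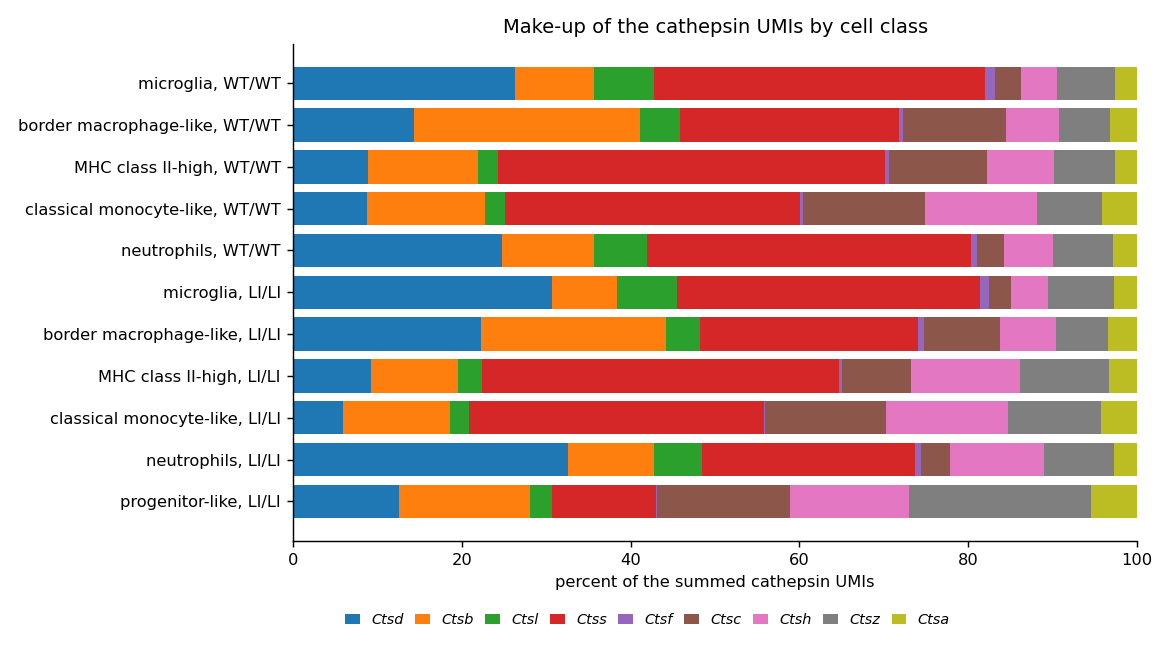
Share of each cathepsin in the summed UMIs of the 9 genes, in percent, for 11 combinations of cell class and library. Ctsd and Ctss take 65.6% of the bar in WT/WT microglia, Ctsb 26.7% in WT/WT border macrophage-like cells, and Ctsc 14.3% and Ctsh 14.6% in LI/LI classical monocyte-like cells.

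Across the 12 class and library profiles with at least 50 cells, some pairs of cathepsins were more alike than others. Profiles were compared by Pearson's r of log2(CPM + 1), a description over points that share libraries, depth and microglial transcripts. Ctsd and Ctsl had r = 0.97, Ctsf and Ctsl 0.95, and Ctsd and Ctsf 0.93, while Ctsa was closest to Ctsz (0.96) and Ctsb (0.94). Ctsa, which held CACGTG as Ctsd, Ctsf and Ctsl did, had 0.75, 0.77 and 0.85 with these. Ctsc and Ctsd were the least alike (0.34), followed by Ctsd and Ctsh (0.37). Among 2796 genes with a mean of at least 50 CPM, the 3 most like Ctsl were Trem2 (0.98), a lipid receptor of microglia, Lgmn (0.97) and Crybb1. Those most like Ctsd were Golm1 (0.97), Ltc4s and Syngr1, those most like Ctsf were Itgb5 (0.99), Bhlhe41 and Phyhd1, and Cd86, a costimulatory ligand, and Hpgd were near Ctss (0.97 for both). Ctsz was nearest to Leprot (0.98) and Cebpg, and Ctsa to Laptm4a (0.98) and Ly86. Ctsb was nearest to Ms4a6d (0.96), Asah1 and Laptm4a, Ctsc to Fam174a (0.96), Ehd4 and Ms4a6d, and Ctsh to Asah1 (0.96), Cd302 and Dnajb14.

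The other cathepsins and the inhibitors marked further cell types. Ctso, with 85.9 and 83.8 CPM, was the only non-member above 20 CPM in microglia. Ctsg, a granule serine protease of neutrophil precursors, had 4456 CPM in progenitor-like and 275 CPM in all neutrophils of LI/LI, beside 6.61 CPM in its microglia, and Ctsw had 539 and 837 CPM in NK cell-like cells. Ctsk had 103 CPM in the MHC class II-high cells and 207 CPM in the unassigned other cells of LI/LI and at most 0.245 CPM in microglia, and Ctse had 7.18 CPM (155 UMIs) in LI/LI neutrophils and 8 UMIs in those of WT/WT. Cst3 followed the microglial side, with 3535 CPM in LI/LI neutrophils and 4076 in classical monocyte-like cells, against 85192 in microglia. Stfa1 (70.6 CPM), Stfa2 (7.88), Stfa2l1 (134) and Stfa3 (17.0), cytosolic cystatins, were seen in LI/LI neutrophils and at most at 0.857 CPM in its microglia. Cst7 (cystatin F), which inhibits cathepsin C, had 12.8 and 17.3 CPM in microglia and 265.5 CPM in progenitor-like cells, and Cst6 had at most 2 UMIs in any class of LI/LI named here.

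In LI/LI, 29 of 33 other lysosomal genes were higher in microglia than in neutrophils past 2-fold and none was lower, and all 9 processing and sorting genes tested were higher, with 4.84 for Lgmn. Of the V-ATPase genes 8 of 17 were higher and 1 lower (Atp6v1e1). The background is the 52% and 12.2% given above.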

How the data were processed

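Sorted brain cells of 1 pool of 6 mice per genotype were measured by 10x 3′ single-cell RNA sequencing. The authors deposited raw counts, 1 table of UMIs by gene and barcode for each library. The submitters' processing notes name Cell Ranger 6.1.2, STAR (version not given), Seurat 3.0.1 and mm10. Whether chip B or G was used for each library is not given in the sources used here. Counts of the 2 libraries were read with pandas 2.3.3 and numpy 2.4.6 in Python 3.11.15, intervals came from scipy 1.17.1 and plots from matplotlib 3.10.9, and groups were taken from the labels. No doublet caller was run, and cells passing both the neutrophil and the microglial marker cuts were counted and left out as an alternative.

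UMIs were summed per class and library and expressed per 1000000. Comparisons cover genes with a mean of at least 20 CPM over the groups compared. With 1 library per group there is no test, and a gene counts when its ratio is past 1.28-fold between genotypes (the natural log fold of 0.25 used by the study) or 2-fold between classes. Intervals were checked on simulated counts. Other cells were split by the marker list with the highest share of their UMIs, at least 0.2%, a minimum set after the data were seen. TMM factors came from edgeR 4.0.16 (R 4.3.3). Gene spans came from GENCODE, matched by identifier for 32235 genes, and promoters from RefSeq tables.

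The members and lists were chosen with earlier results of these data known. Named are the 9 members, counts and the 2 most abundant microglial genes of each list (other cathepsins, inhibitors, processing and sorting, lysosomal genes, V-ATPase, antigen presentation, granule serine proteases), the detected other cathepsins and cystatins, and the 3 genes most like each member. A few genes of these lists are not reported here. Other genes named were chosen after their values were seen. Alternatives were other marker cuts, other folds and low filters, TMM factors, other totals, equal weight per cell, thinning, and leaving out mixed or very deep cells.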

Additional observations from a re-analysis of the deposited data

Results flagged for a closer look

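For 6 cathepsins the difference between the genotypes ran in opposite directions in the 2 main cell classes, above 0 in microglia and below 0 in neutrophils. Of all genes tested, 36.0% were above 0 in microglia and 27.9% in neutrophils. The share of genes with both directions was not counted, so whether 6 of 9 is unusual is not known. The microglial log2 ratio exceeded the neutrophil one by 1.93 for Ctsa, 1.90 for Ctsf, 1.89 for Ctsl, 1.72 for Ctsz, 1.59 for Ctsd and 0.88 for Ctsh. With 1 library per genotype this difference was not tested. The neutrophil ratios moved together with the microglial transcripts in the neutrophils, 19.3% to 21.6% of the microglial level in WT/WT and 3.47% to 4.03% in LI/LI, and the part of those transcripts was not tested.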

How the results depend on the processing

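The count of cathepsins past 1.28-fold between genotypes in microglia, 0 as reported, became 1 (Ctsd) with microglial markers at 1% or more, with totals without hemoglobin, mitochondrial and ribosomal genes, with equal weight per cell and without the 5% of cells with most UMIs, and 2 (Ctsd and Ctsz) with TMM factors. The summed log2 ratio, 0.13 as reported, was 0.10 with markers at 0.25%, 0.15 with markers at 1%, 0.15 without those genes in the totals, 0.14 with equal weight per cell, 0.14 without the deepest cells and 0.26 with TMM factors. At 4-fold in place of 2-fold, 4 cathepsins were lower in classical monocyte-like cells and 0 past the fold in border macrophage-like cells, an alternative added for these comparisons after seeing the data. The other counts stayed within 1.5 times. Of 108 single-gene values between genotypes in microglia, 102 kept the sign and 86 stayed within the counting interval. The exceptions in sign were Ctss under 5 settings and Ctsb with TMM factors. In neutrophils all 108 kept the sign, and in border macrophage-like cells 123 of 126 did, Ctsa being the exception. Outside their counting interval were 32 of 108 values between genotypes in neutrophils, 39 and 59 of 108 for microglia over neutrophils in WT/WT and LI/LI, 39 of 126 for classical monocyte-like and 22 of 126 for border macrophage-like cells.

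No paired analysis was possible because each genotype has 1 library and no test was made. The pool, dissection, sort and library of each genotype cannot be told apart from the genotype. Classes rest on marker cuts, with 302 and 210 cells within 0.1 percentage points of the microglial cut. The 116 neutrophils and 38 classical monocyte-like cells of WT/WT and the 21 border macrophage-like cells of LI/LI limit the precision there, and counting intervals do not cover differences between mice.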

Other observations

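Within microglia, the 10% of cells with the largest share of disease-associated genes (618 WT/WT and 195 LI/LI cells) had more Ctsb than the rest, 2497 against 1826 CPM and 2180.5 against 1678 CPM, log2 ratios of 0.45 and 0.38. Ctsc was higher by 0.28 and 0.21. Ctsz stood at 0.16 and 0.06 (-0.02 to 0.13), and Ctsd at 0.11 and 0.01 (-0.03 to 0.05). The LI/LI values of Ctsz and Ctsd were thus within counting error. Ctsf was at -0.05 and -0.39 (-0.62 to -0.17) and Ctsl at 0.09 and -0.00. These cells also had more Mrc1 (5.29 and 3.34) and Lyz2 (2.68 and 2.45) and less P2ry12 (-0.48 in both). With Apoe left out of the list, an alternative added after seeing the data, Ctsb stood at 0.47 and 0.32, Ctsz at 0.32 and 0.21, and Ctsd at 0.23 and 0.10. Ctsf then stood at -0.15 and -0.16 (-0.39 to 0.06), the LI/LI value within counting error. Mrc1 stood at 0.21 (-0.05 to 0.45) and 0.57 (-0.23 to 1.30), both within counting error. Lyz2 stayed higher in the chosen cells (1.55 and 2.18) and P2ry12 stayed lower (-0.30 and -0.28). The cells were chosen by a share of the same UMIs, so these values are a description.

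Lymphoid classes held some cathepsin mRNA beside microglial transcripts. In LI/LI, Ctsd had 1188 CPM in 68 NK cell-like, 1054 CPM in 59 T cell-like and 602 CPM in 77 B cell-like cells, or 17.4%, 15.4% and 8.79% of its microglial level. The 7 microglial check markers stood at 4.69% to 10.1%, 11.4% to 18.5% and 4.95% to 10.3% of theirs in these classes, so Ctsd exceeded them in NK cell-like cells and lay within their range in T and B cell-like cells. Of the 9 cathepsins, 7, 4 and 7 were above all markers in these classes. Ctsc was the highest, at 34.2%, 21.4% and 36.7% of its microglial level. The share of all genes above the markers was not counted. Ctsd in NK cell-like cells was seen in 86.8% of cells, beside 8.82% for Ctsh. In WT/WT, Ctsd was above all 7 markers in the 20 NK cell-like and also in the 42 T cell-like cells.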
